A study of Drosophila melanogaster with 6 samples.

Results

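The IM (immune-induced molecule) genes encode small secreted peptides that accumulate in fly hemolymph after infection. The table of the series was searched for gene symbols made of IM and digits only, or starting with Bom, and 7 of its 15656 genes met this rule: IM1, IM2, IM3, IM4, IM10, IM14 and IM23. No symbol in the table started with Bom, since the table uses older names. In the reference gene table IM1, IM2 and IM3 are the short Bomanins BomS1, BomS2 and BomS3, IM23 is the bicipital Bomanin BomBc1, IM4 and IM14 are the Daisho genes Dso1 and Dso2, and IM10 is the Baramicin gene BaraA2. All 7 passed the filter on low values and were tested.

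The libraries came from whole adult male flies. The 3 overexpression libraries were from Gal80ts; Tub>lncRNA-CR33942 flies, in which the ubiquitous tubulin driver Tub-Gal4 expresses the long noncoding RNA lncRNA-CR33942. The 3 control libraries were from Gal80ts; Tub-Gal4/P{CaryP}attP40 flies, which carry the driver and an attP40 landing site stock in place of the transgene. Both genotypes carry Gal80ts, a temperature-sensitive repressor of Gal4, and per the study's methods such flies were kept at 18 °C, were moved as adults to 29 °C for more than 24 h and were infected as males aged 3 to 5 d. Flies of both groups were collected 12 h after *Escherichia coli* was injected into the thorax. No uninfected library is among the 6, so the values compare genotypes after infection and give no induction by infection. Whether these genotypes differ elsewhere in the genome was not tested. The study's methods speak of independent biological replicates for its experiments in general, and the labels do not tie the libraries of a group to separate cultures. The p-values measure the spread between these libraries.

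Bomanins, Daisho peptides and Baramicins are made mainly by the fat body, the fly's liver-like organ, and are released into the hemolymph. Their genes are best known as targets of the Toll pathway, in which extracellular sensors and serine proteases activate the ligand Spätzle, the receptor Toll signals through Myd88, tube and pelle, the inhibitor cactus is degraded, and the NF-κB factors Dif and Dorsal enter the nucleus. Gram-negative bacteria such as *E. coli* chiefly activate the parallel Imd pathway, which ends in the NF-κB factor Relish. Bomanins are needed for resistance to fungi and several bacteria, and Daisho and Baramicin peptides act against filamentous fungi.

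Of the 7 IM genes, IM23 and IM14 were upregulated in lncRNA-CR33942-overexpressing flies, 0 were downregulated and 5 were not called at an adjusted p under 0.05 (limma). IM23 showed the largest change, 1.48-fold, and IM14 was 1.26-fold higher. Among all 13196 genes tested, 8.42% were called in either direction, 3.18% higher and 5.24% lower, and with 7 members nothing particular to the group is read from its 2 calls. The median log2 fold change was 0.098 over the 7 members and 0.0059 over all genes tested, and 5 members had a positive and 2 a negative value. At an unadjusted p under 0.05, 3 members were higher and 2 lower with limma, 3 and 2 with edgeR, and 3 and 1 with DESeq2. At that threshold limma put 9.78% of all genes tested higher and 12.4% lower, edgeR 9.94% and 12.4%, and DESeq2 6.04% and 8.66%. With the adjusted p, edgeR and DESeq2 each called 2 higher and 0 lower, where they called 8.37% and 7.41% of all genes in either direction.

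**Figure D1:**
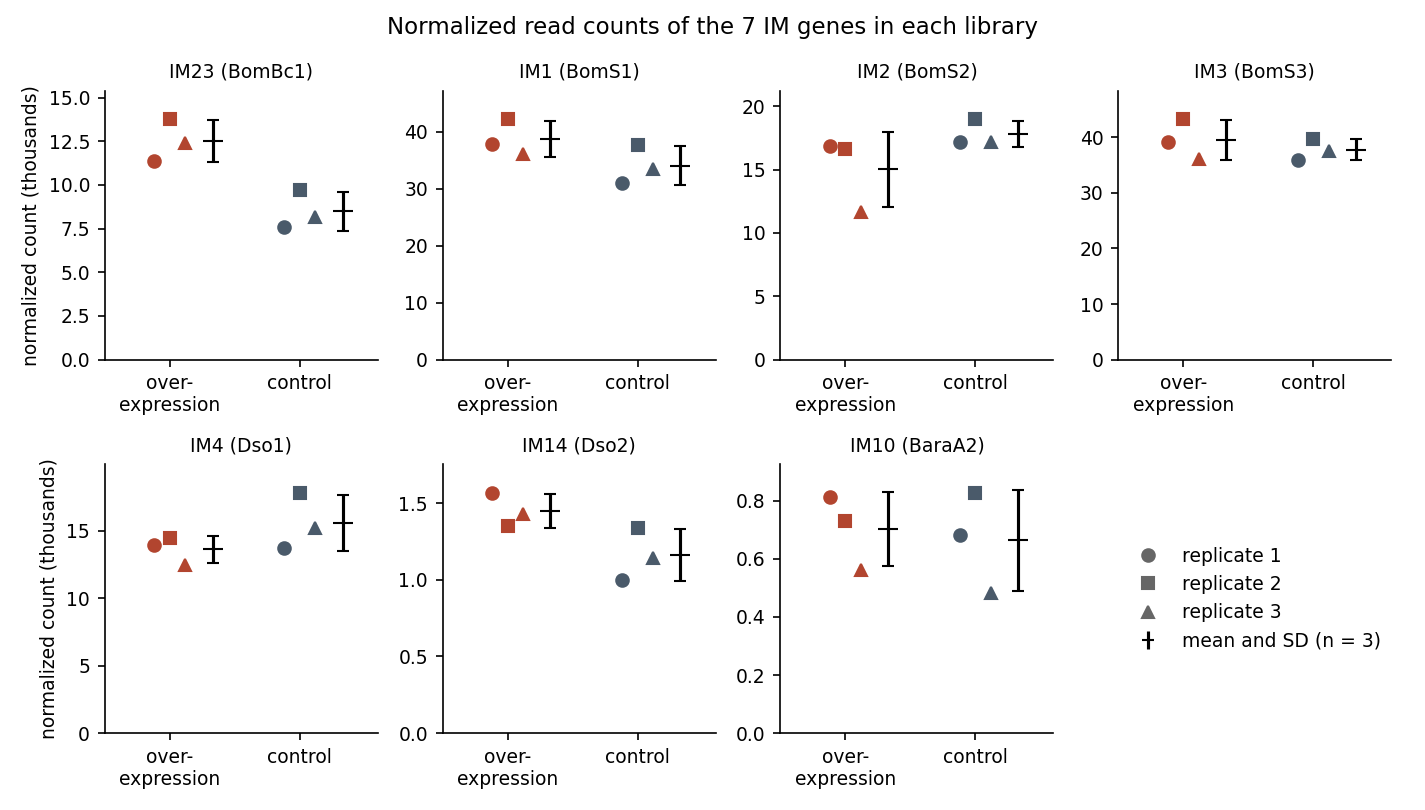
Normalized read counts (vertical axes in units of 1000, starting at 0) of the 7 IM genes in each overexpression (red) and control (blue) library, with the group mean and SD (n = 3 each). The overexpression libraries of IM23 and IM14 all lie above the control libraries, those of IM2 all lie below, and the groups of the other 4 genes overlap.

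IM23 (BomBc1, FBgn0034328) encodes a bicipital Bomanin, a precursor that carries a pair of Bomanin motifs joined by a linker. It lies on the minus strand of chromosome 2R at 18382704 to 18383235 (dm6) in 2 exons. The gene had 11379, 13759 and 12420 normalized counts in the 3 overexpression libraries, against 7604, 9728 and 8145 in the 3 control libraries. The groups did not overlap, and the lowest overexpression library stood above the highest control library. The means were 12519 ± 1193 in overexpressing flies and 8492 ± 1103 in control flies (SD, n = 3 each). The log2 fold change was 0.56 (SE 0.087, 95% interval 0.37 to 0.75, limma adjusted p = 0.00185). IM23 was called in 14 of 15 alternative settings and was lost in the limma fit without an intensity trend, where its adjusted p was 0.0952.

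IM14 (Dso2, FBgn0067905) encodes one of the Daisho peptides. It occupies 20870392 to 20870678 on the plus strand of 2R in 2 exons. Its normalized counts were 1567, 1352 and 1428 in overexpressing flies, against 1000, 1339 and 1141 in control flies. The groups were separate but close, since overexpression replicate 2 and control replicate 2 were nearly level. The mean of 1449 ± 109 in overexpressing flies against 1160 ± 170 in control flies (SD, n = 3 each) gave a log2 fold change of 0.33 (SE 0.092, 95% interval 0.13 to 0.53, limma adjusted p = 0.0460). The call lay at the threshold: it held in 9 of 15 alternative settings and was lost without overexpression replicate 1 (log2 fold change 0.27, adjusted p = 0.163), overexpression replicate 3 (0.34, 0.0932), control replicate 1 (0.23, 0.192) or control replicate 3 (0.32, 0.137). The fold stayed positive in all 15.

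The 3 short Bomanins did not pass the test. Each encodes little more than a signal peptide and a single Bomanin motif, and their transcripts are the most abundant among the 7 IM genes. IM1 (BomS1, FBgn0034329, 2R 18383949 to 18384378, plus strand) had 37919, 42166 and 36017 normalized counts in overexpressing flies, against 31013, 37721 and 33432 in control flies. The groups overlapped in that control replicate 2 lay above overexpression replicate 3, and the log2 fold change was 0.19 (95% interval 0.0078 to 0.36, limma adjusted p = 0.202).

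IM2 (BomS2, FBgn0025583, 2R 18386602 to 18387030, plus strand) had 16866, 16588 and 11625 normalized counts in overexpressing flies, against 17198, 18959 and 17187 in control flies. All overexpression libraries lay below all control libraries, but replicates 1 and 2 by a small margin and replicate 3 by a wide one. The log2 fold change was −0.26 (95% interval −0.51 to −0.015, limma adjusted p = 0.195) and without overexpression replicate 3 it was −0.087. The coefficient of variation of IM2 was 19.6% among overexpression libraries and 5.73% among control libraries.

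IM3 (BomS3, FBgn0040736, 2R 18387895 to 18388734, plus strand) had 39098, 43220 and 36003 normalized counts in overexpressing flies, against 35936, 39748 and 37601 in control flies. Here the groups interleaved, with a log2 fold change of 0.060 (95% interval −0.10 to 0.22, limma adjusted p = 0.703). The interval leaves room for a rise of up to 1.17-fold and a decrease to 0.931-fold.

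The other Daisho gene and the Baramicin gene also had overlapping groups. IM4 (Dso1, FBgn0040653, 2R 20868496 to 20869321, minus strand) had 13940, 14457 and 12491 normalized counts in overexpressing flies, against 13722, 17816 and 15213 in control flies. Its log2 fold change was −0.19 (95% interval −0.37 to −0.0013, limma adjusted p = 0.220), the opposite sign to IM14.

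IM10 (BaraA2, FBgn0033835, 2R 13407011 to 13408358, plus strand, up to 4 exons) encodes a Baramicin A precursor that is cut into several peptides. It had 811, 730 and 561 normalized counts in overexpressing flies, against 682, 826 and 482 in control flies. The spread within each group exceeded the difference between them, and the log2 fold change was 0.098 (95% interval −0.27 to 0.46, limma adjusted p = 0.792). Its value is uncertain for another reason: CG33470 (BaraA1) is a near-identical copy 3380 bases away, and CG18278 on the other strand overlaps IM10 by 317 bases. How the counting treated reads that fit both copies, and whether it used strand, is stated neither in the labels nor in the methods.

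For a single gene, the exact two-sided permutation test on 3 against 3 libraries cannot go below 0.1, so it cannot reach 0.05. It gave 0.1 for IM23, IM14 and IM2, 0.2 for IM1, 0.3 for IM4, 0.6 for IM3 and 0.7 for IM10. Groups without overlap were found for 2 members higher and 1 lower in overexpressing flies, where 12.9% and 14.4% of all genes tested did the same. Within the control group, replicate 2 had the highest count of all 7 members. Without control replicate 2 the log2 fold changes of IM23 and IM14 were 0.67 and 0.44, and those of IM1, IM2, IM3, IM4 and IM10 were 0.26, −0.21, 0.098, −0.087 and 0.27, with the same genes called.

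Levels of different genes were compared as FPKM, which divides reads by gene length and library depth and was worked out here from recovered reads and each gene's deposited length. IM1 had 6052 ± 499 FPKM in overexpressing flies and 5177 ± 520 FPKM in control flies (SD, n = 3 each), rank 13 of all genes by mean level. IM3 had 2895 ± 269 FPKM in overexpressing flies and 2695 ± 137 FPKM in control flies, and IM2 had 2311 ± 455 FPKM in overexpressing flies and 2659 ± 163 FPKM in control flies. The Bomanins with a single motif were the most abundant members per length in both genotypes. IM23 had 1510 ± 145 FPKM in overexpressing flies and 996 ± 131 FPKM in control flies, while IM4 had 1003 ± 76 FPKM in overexpressing flies and 1115 ± 149 FPKM in control flies. IM14 was at 367 ± 27 FPKM in overexpressing flies and 285 ± 42 FPKM in control flies. IM10 was the lowest, with 34.1 ± 6.2 FPKM in overexpressing flies and 31.4 ± 8.4 FPKM in control flies, rank 2672.

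In overexpressing flies the order was IM1, IM3, IM2, IM23, IM4, IM14 and IM10, and the ranges of neighbours in this order did not overlap. In control flies IM23 stood below IM4. There the ranges of IM3 and IM2 overlapped, with IM3 higher in 2 of 3 libraries, and so did those of IM4 and IM23, with IM4 higher in 3 of 3. FPKM of such short genes depends on fragment length, which the deposited gene lengths do not take into account.

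**Figure D2:**
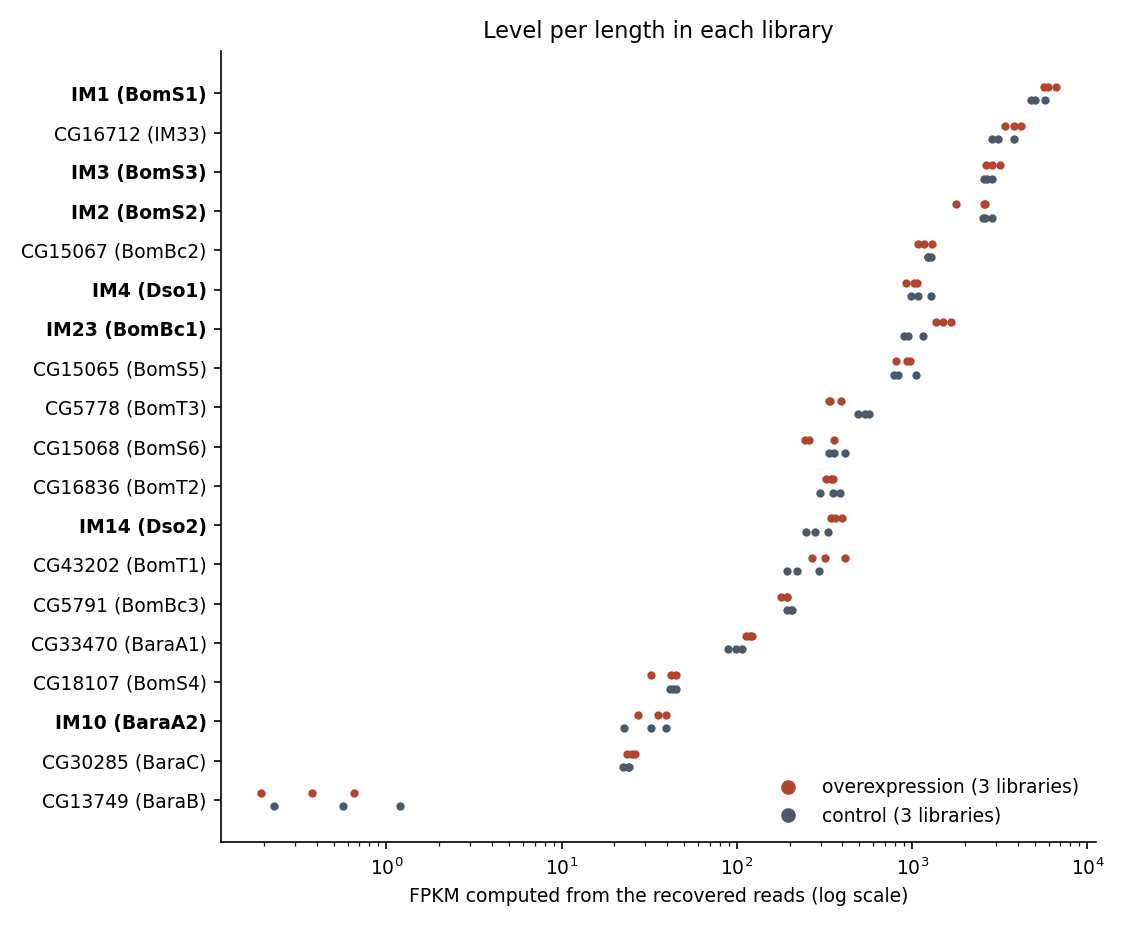
FPKM (log scale) of the 19 Bomanin, Daisho, Baramicin and IM33 genes in each overexpression (red) and control (blue) library, ordered by mean level in control flies, with the 7 IM genes in bold. IM1 lies highest, at 6052 FPKM on average in overexpressing flies and 5177 FPKM in control flies.

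The 7 genes held 0.686%, 0.748% and 0.623% of all reads in the overexpression libraries, against 0.592%, 0.695% and 0.615% in the control libraries. These shares overlapped between the groups. Within the 7, the shares of IM23, IM1, IM2 and IM4 did not overlap between the groups, and those of IM14, IM3 and IM10 did. IM23 held 9.36%, 10.4% and 11.2% of the members' reads in overexpressing flies, against 7.10%, 7.71% and 7.19% in control flies. IM2 held 13.9%, 12.5% and 10.5% in overexpressing flies, against 16.0%, 15.0% and 15.2% in control flies, and IM4 held 11.5%, 10.9% and 11.3% in overexpressing flies, against 12.8%, 14.1% and 13.4% in control flies. Such shares add up to a fixed total, so they are not independent of each other. The normalized counts of IM1 and IM4 themselves overlapped between the groups. Such shares were not worked out for other sets of genes, so nothing is read from how many were separate.

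IM23, IM1, IM2 and IM3 are neighbours in a Bomanin cluster of 9237 bases on 2R (18381393 to 18390629), together with 6 Bomanin genes listed under CG symbols. IM23 and IM1 point away from each other across 713 bases. The cluster lies 320761 bases from lncRNA-CR33942 on the same chromosome arm. IM23 was the 1 gene of these 10 called, where 8.42% of all genes tested were called in either direction. Next to it at the left end, CG43202 (BomT1), a tailed Bomanin, had 2202, 2867 and 1851 normalized counts in overexpressing flies, against 1355, 2076 and 1583 in control flies, with overlapping groups and a log2 fold change of 0.46 (limma adjusted p = 0.0853). Leaving out 1 library moved it between 0.30 and 0.63, and it was called without overexpression replicate 3 (0.61, adjusted p = 0.0345) or control replicate 2 (0.63, adjusted p = 0.00962). With same-numbered libraries treated as a block, CG43202 was also called (limma adjusted p = 0.000706). At the right end CG15068 (BomS6) had a log2 fold change of −0.41 (adjusted p = 0.0532). It was called in 2 of 15 alternative settings: without overexpression replicate 1 (−0.58, adjusted p = 0.00256) and with that block (adjusted p = 0.0222). CG15067 (BomBc2), the other bicipital gene of the cluster, had −0.12 (adjusted p = 0.313), and CG18107 (BomS4), which overlaps it by 88 bases, had −0.18 (adjusted p = 0.452). Without overexpression replicate 3, CG15067 had −0.055 and CG18107 −0.038.

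**Figure D3:**
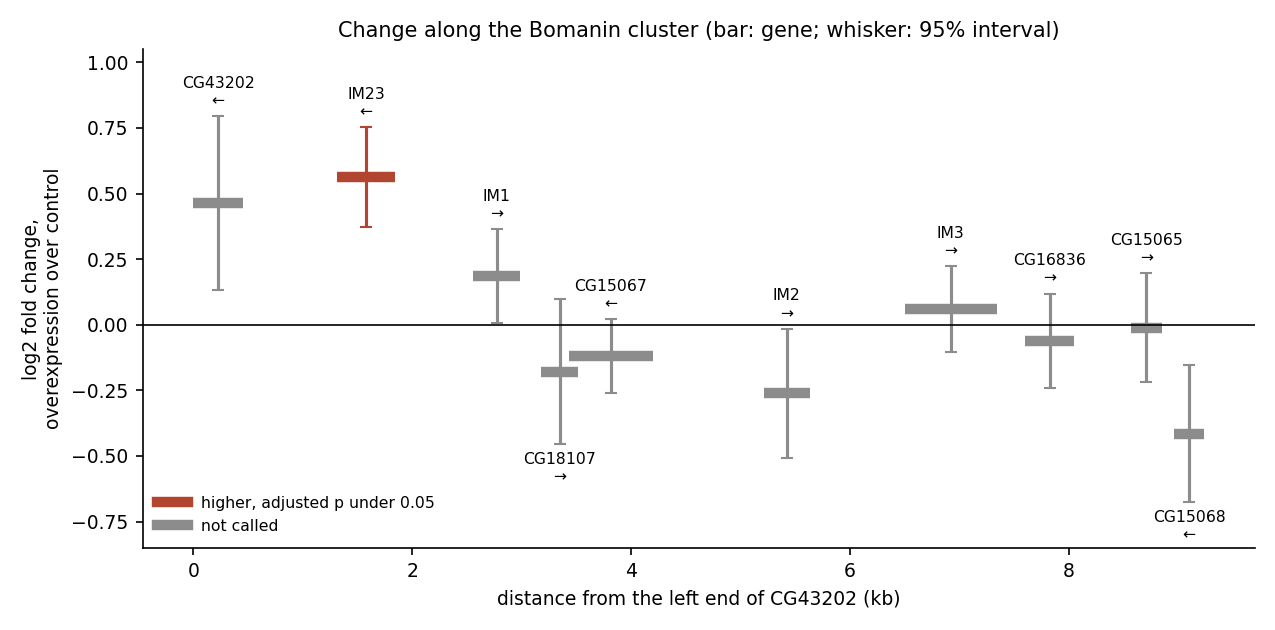
Log2 fold change (overexpression over control, limma, whiskers 95% intervals) of the 10 Bomanin genes against their distance in kb from the left end of CG43202, with arrows for the strand. IM23, at 0.56, is the gene called higher, and the values of the others run between −0.41 and 0.46.

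Ratios between genes within a library do not depend on its scaling. Those given here, between genes of the cluster or of a close pair, were picked after the values above had been seen and are given as a description. IM23 over IM1 was 0.300, 0.326 and 0.345 in overexpressing flies, against 0.245, 0.258 and 0.244 in control flies. IM23 over CG15067 was 0.695, 0.931 and 0.913 in overexpressing flies, against 0.460, 0.611 and 0.508 in control flies. Both ratios were higher in every overexpression library than in any control library.

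IM1 over IM2 was 2.25, 2.54 and 3.10 in overexpressing flies, against 1.80, 1.99 and 1.95 in control flies. IM14 over IM4, a Daisho pair 1070 bases apart, was 0.112, 0.0936 and 0.114 in overexpressing flies, against 0.0728, 0.0752 and 0.0750 in control flies. The control ratios of the Daisho pair lay close together, and the overexpression ratios all lay above them. For the Baramicin copies, CG33470 over IM10 was 2.84, 3.44 and 4.36 in overexpressing flies, against 3.02, 2.73 and 3.93 in control flies, which overlap.

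**Figure D4:**
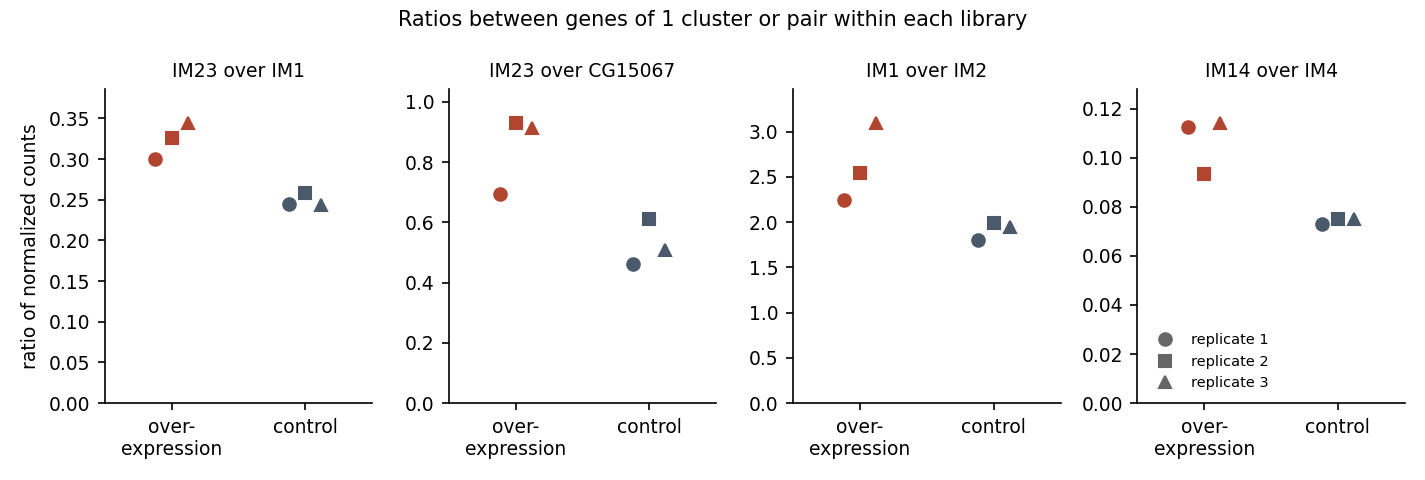
Ratios of normalized counts between genes of the Bomanin cluster or the Daisho pair within each library (vertical axes starting at 0) in overexpressing (red) and control (blue) flies. The 4 pairs were picked after the values had been seen. In all 4 the overexpression libraries lie above the control libraries, as for IM14 over IM4, where the lowest overexpression value is 0.0936 and the highest control value 0.0752.

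The wider family was taken from a list of 20 Bomanin, Daisho, Baramicin and other IM genes, of which 19 were matched by gene identifier and IM18 was not analysed here. Of the 19, 3 were upregulated (IM23, IM14 and CG33470), 1 was downregulated (CG5778) and 15 were not called, with a median log2 fold change of −0.011, where 3.18% of all genes tested were called higher and 5.24% lower. CG5778 (BomT3), a tailed Bomanin on 3R outside the cluster, had 3908, 4560 and 3952 normalized counts in overexpressing flies, against 6757, 6443 and 5933 in control flies. Its groups were far apart, with a log2 fold change of −0.62 (SE 0.067, limma adjusted p = 0.000142), and it was called in all 15 alternative settings. CG5791 (BomBc3), 677 bases away, had −0.13 (adjusted p = 0.128).

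CG33470 (BaraA1) had 2304, 2512 and 2449 normalized counts in overexpressing flies, against 2061, 2252 and 1891 in control flies. Its groups were close but separate, with a log2 fold change of 0.23 (limma adjusted p = 0.0464), and the call held in 7 of 15 alternative settings. As for its near-identical copy IM10, the value depends on how reads that fit both copies were counted, which is not stated. CG16712 (IM33) had 25677, 28245 and 22914 normalized counts in overexpressing flies, against 19766, 26322 and 21748 in control flies, which overlapped (log2 fold change 0.18, adjusted p = 0.305). The remaining members were CG16836 (BomT2, −0.060), CG15065 (BomS5, −0.011, above 0 when scaled to library totals or by quantiles), CG30285 (BaraC, 0.049) and CG13749 (BaraB, −0.54), which averaged 6.46 normalized counts in overexpressing flies and 10.8 in control flies and had a log2 fold change of −0.026 without control replicate 2. None of these 4 was called, with limma adjusted p between 0.646 and 0.965.

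**Figure D5:**
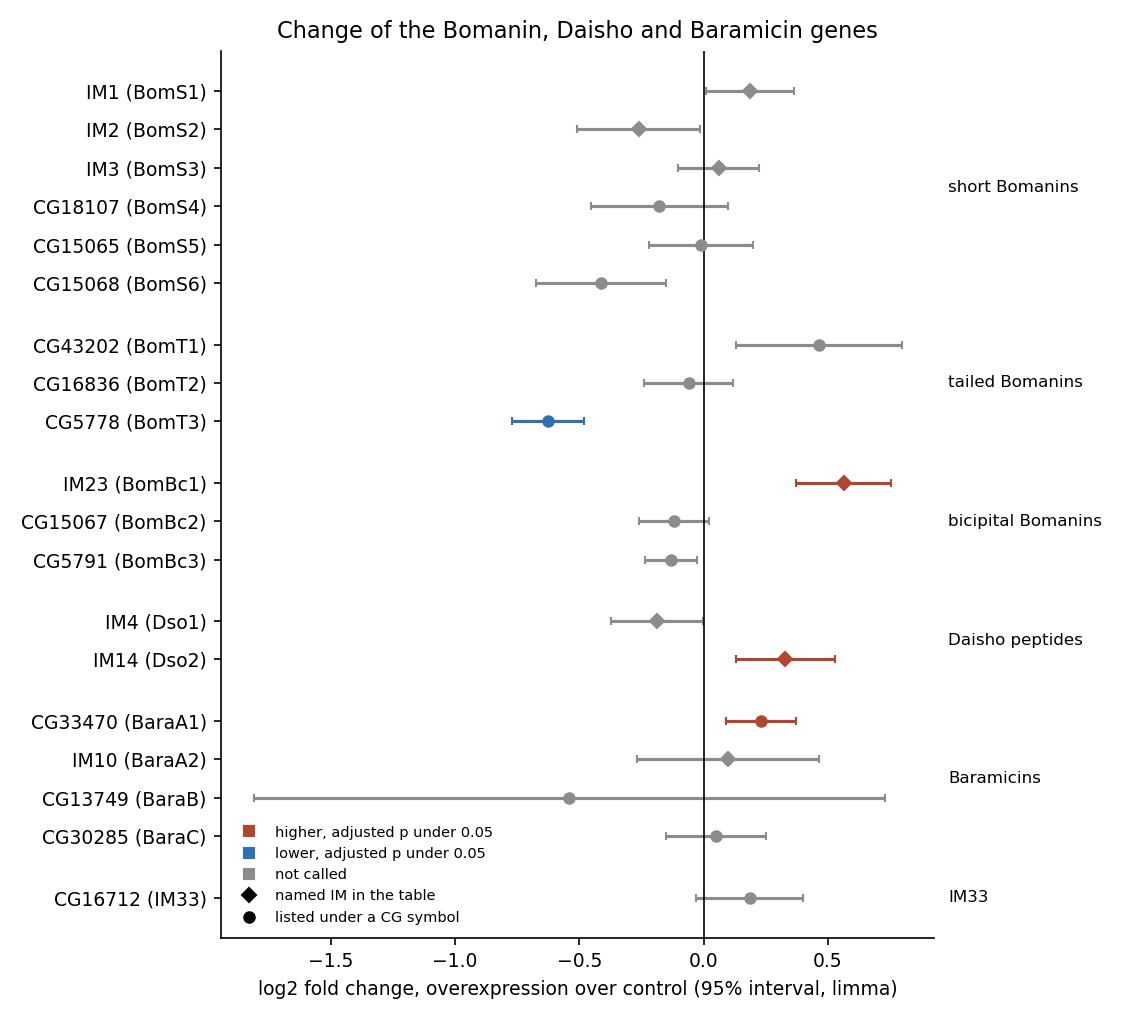
Log2 fold change (overexpression over control, limma, 95% intervals) of the 19 family genes, grouped by peptide class, with diamonds for the 7 IM genes and circles for genes listed under CG symbols. Called genes are IM23 at 0.56, IM14 at 0.33 and CG33470 at 0.23 (red, higher) and CG5778 at −0.62 (blue, lower).

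The Toll pathway genes, a list of 26, were set beside the peptides. Of these, 4 were upregulated, 1 was downregulated and 21 were not called, with 13 positive and 13 negative values and a median log2 fold change of 0.011, beside the same 3.18% higher and 5.24% lower over all genes. Among the sensors, PGRP-SD, a peptidoglycan recognition protein, was higher (0.65, limma adjusted p = 0.000376) and GNBP3, which binds fungal β-glucan, was lower (−0.34, adjusted p = 0.00311). The serine proteases Hayan (0.36, adjusted p = 0.0211) and spirit (0.38, adjusted p = 0.0252) were higher, while spz, the gene of the ligand, had 0.35 (adjusted p = 0.0552).

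The inhibitor gene cact had 0.094 (limma adjusted p = 0.606), and the transcription factor genes Dif and dl had −0.0072 (adjusted p = 0.959) and −0.24 (adjusted p = 0.0763). Among the effectors, Def, a defensin gene, was higher (1.42, adjusted p = 0.00155), with 11429, 18653 and 9591 normalized counts in overexpressing flies against 3461, 5145 and 5948 in control flies. Drs (0.26, adjusted p = 0.139), the antifungal peptide gene often used as a readout of Toll, and Mtk (−0.018, adjusted p = 0.944) were not called. Rel, the gene of Relish, was higher (0.46, adjusted p = 0.0115).

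The libraries held 16894595 to 19423287 reads, and lncRNA-CR33942 averaged 4636 normalized counts in overexpressing flies and 197 in control flies (log2 fold change 4.55, limma adjusted p = 8.43e-13). All 5 fat body markers were called lower in overexpressing flies (limma), where 5.24% of all genes tested were lower and 3.18% higher. None was at 0. Their sum was 24402 to 35184 normalized counts in overexpressing flies against 37779 to 42107 in control flies. Rfabg (apolpp) held most of these sums. Its groups overlapped, since overexpression replicate 1 (34685) lay above control replicate 2 (33868), and its limma adjusted p was 0.0489. The groups of Fbp1 overlapped too (adjusted p = 0.0274). Of 5 blood cell markers, 1 was higher and 3 lower, with sums of 22312 to 27910 in overexpressing flies and 29145 to 32701 in control flies. Nplp2 held most of these sums, and without it the other 4 summed to 8189 to 8762 in overexpressing flies and 7426 to 8164 in control flies. In whole flies, fewer cells of a type and less RNA per cell cannot be told apart, and the part of either marker list in the values of the IM genes was not tested. Of the female markers Yp1 and Yp2 were near 0 in all 6 libraries and Yp3 was lower in overexpressing flies (−1.19, adjusted p = 0.00532), while 0 of 3 male and 0 of 3 gut markers were called by limma.

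Genes around the members were also counted. Of 17 tested genes within 50 kb of the Bomanin cluster that are not in the family list, 0 were higher and 2 lower (limma), with a median log2 fold change of −0.17. Around IM4 and IM14, 0 of 11 were higher and 2 lower, with a median of 0.15, and around IM10 and CG33470, 1 of 13 was higher and 1 lower, with a median of −0.041. With 3.18% of all genes called higher and 5.24% lower, nothing particular to these places is read from such small counts.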

How the data were processed

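Poly(A)-selected RNA of male flies was sequenced as paired-end reads in 3 overexpression and 3 control libraries. The authors aligned reads with Hisat2 2.0.5, counted them per gene with featureCounts 1.5.0-p3 and compared groups with DESeq2. The submitters' processing notes name dm6. The deposited table is headed FPKM but holds a signal: each library's read counts over its own size factor (0.931 to 1.06). Multiplied by that factor, 100% of values were whole reads (tolerance 0.01). The authors' log2 fold changes and p-values, also in the deposited table, were not used.

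Here log2(normalized count + 1) was fitted with limma 3.58.1 (R 4.3.3) with an intensity trend, over the 13196 genes whose mean FPKM, computed from recovered reads, was 0.5 or more. Fold changes are on that scale, which understates those of low genes. P-values were adjusted over all genes tested (Benjamini-Hochberg) and called under 0.05. The exact permutation test on group means was two-sided. Replicates of a group differed beyond sampling noise (chi-square per degree of freedom at least 5.31 in each pair). The genes named were the IM genes, the family list, called Toll genes with spz, cact, Dif, dl, Drs and Mtk, and Rel and lncRNA-CR33942 as checks. Other markers and genes nearby were counted. Rfabg, Fbp1, Fbp2, Lsp1gamma, Lsp2, Nplp2, Yp1, Yp2, Yp3 and CG18278 were named after their values or positions had been seen. Members and lists were chosen with earlier results of these data known. Alternatives were a pseudocount of 0.1, no filter, at least 5 FPKM, no trend, a replicate block, library totals, quantile normalization, edgeR 4.0.16 and DESeq2 1.42.0 on recovered reads, and each library left out. The scripts were tested on simulated data.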

Additional observations from a re-analysis of the deposited data

How the results depend on the processing

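Over all genes, 1111 were called, and 193 without an intensity trend (179 of them among the 1111), where 0 IM, 0 family and 0 Toll genes were called higher, 0 Toll genes lower, IM23 had an adjusted p of 0.0952 (log2 fold change 0.56) and IM14 one of 0.227 (0.33). Leaving out 1 library gave 529 to 1011 calls, the fewest without control replicate 1 (529) or 3 (629). At least 5 FPKM gave 352 of 8988 genes higher and 609 lower. It left 1 IM gene called higher, with IM14 at 0.33 (adjusted p = 0.0528). Leave-one-out gave 1 to 2 IM genes higher (1 without overexpression replicate 1 or 3 or control replicate 1 or 3), 1 to 4 family genes higher, 1 to 2 lower (2 without overexpression replicate 1), 2 to 8 Toll genes higher and 1 to 3 lower. IM14 ranged from 0.23 to 0.44. With the replicate block, limma called 517 of 13196 genes higher and 846 lower, against 420 and 691 without it. Lower with the block were 1 IM gene (IM2, −0.26, adjusted p = 0.0448), 3 family genes and 2 Toll genes. The 3 family genes were IM2, CG5778 and CG15068 (adjusted p = 0.0222). Higher were 4 family genes (CG43202 added, adjusted p = 0.000706) and 7 Toll genes. Nothing particular to these lists is read from the added calls. Over all genes tested, deviations from the group mean correlated at −0.034, 0.052 and −0.036 between same-numbered libraries. Values near 0 over all genes cannot show whether such libraries shared a batch, and this was not tested. Signs reversed for IM10 without overexpression replicate 1 (−0.016) or control replicate 3 (−0.12), IM3 without overexpression replicate 2 (−0.0081), CG16836 without control replicate 2 (0.023), and CG15065 by library totals (0.030), quantiles (0.042) and without overexpression replicate 3 (0.069) or control replicate 2 (0.11). Leave-one-out values ran from −0.0081 to 0.12 for IM3, −0.12 to 0.27 for IM10, −0.096 to 0.11 for CG15065 and −0.17 to 0.023 for CG16836. Single-gene values kept their sign and side of the threshold in 255 fits, lost the call in 15, gained it in 6 and reversed in 8. The causes were not tested. Library totals turned the split of calls to 632 higher and 503 lower, against 420 and 691 with the deposited scaling, and put the median of all genes at 0.046.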
